A study of Mus musculus with 8 samples.

Results

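The small RNAs of D6 mPGCLCs of the SGET line were compared with those of E13.5 mPGCs, the stage at which piRNAs emerge in vivo. The members were the libraries whose sample titles name SGET Day 6 mPGCLC or mPGC E13.5, with 2 replicates each, which makes 4 of the 8 libraries of the series. The E12.5 mPGC libraries are given beside them as the stage before piRNAs emerge, and the E15.5 libraries entered only the fit across groups. The question was which miRNAs, other annotated small RNAs and read length classes outside 27 nt the in vitro cells lacked or kept.

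SGET is an XY mESC line of a B6CBA/129 mixed background that carries Stella-GFP and Esg1-tdTomato reporters. Its mPGCLCs were made through mEpiLCs and embryoid bodies and were sorted at Day 6 as Stella-GFP-positive and Esg1-tdTomato-negative cells, so both replicates come from 1 cell line. The mPGCs were male, carried the GOF18 reporter in which Pou5f1 regulatory sequence drives EGFP, and came from pooled embryos, with a different litter for each replicate. Their labels give a C57BL/6J strain and a sort on SSEA1 and CD61, whereas the methods of the study give an FVB/C57BL/6J mixed background and a sort on EGFP. The SGET mESCs were kept with LIF and inhibitors of MEK and GSK3, and mPGCLCs were induced with BMPs, LIF, SCF and EGF, whereas the mPGCs were taken from the embryo. No label names a deletion. Strain, reporter, sort and culture differed between the groups together with the stage, and their parts in any difference cannot be told apart.

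miRNAs are cut from hairpin transcripts by Drosha and Dicer and, bound by an Argonaute protein, repress mRNAs that pair with their seed, bases 2 to 8 from the 5′ end. piRNAs are longer, mostly begin with U in fetal male germ cells, are made without Dicer and are bound by PIWI proteins, which silence transposons. Pluripotent cells and early germ cells are known for the Mir290 to Mir295 and Mir302 and Mir367 clusters, while the X-linked Fx-Mir cluster between Slitrk2 and Fmr1 is known for its expression in the testis, and the Dlk1 to Meg3 domain holds a large miRNA cluster that is expressed from the maternal chromosome.

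The miRNAs on which the comparison turned are shown with the seed in capitals, as mature sequences of RefSeq on GRCm38.p6. Of the 105 named features, 88 matched a RefSeq mature sequence through their leading read. The first 5 were at or near 0 reads in SGET mPGCLCs, and all but miR-202 lie in the Fx-Mir cluster. The next 4 belong to the Dlk1 to Meg3 cluster. The remaining ones show the seeds of the pluripotency and Mir17 families.
miR-871-3p, chrX:66810438-66810460, minus strand: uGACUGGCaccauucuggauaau
miR-465c-5p, chrX:66826004-66826025, minus strand: uAUUUAGAauggcgcugaucug
miR-743b-3p, chrX:66777266-66777287, minus strand: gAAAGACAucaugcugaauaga
miR-878-3p, chrX:66801518-66801539, minus strand: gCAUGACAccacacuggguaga
miR-202-3p, chr7:139957695-139957716, minus strand: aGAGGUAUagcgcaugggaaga
miR-379-5p, chr12:109709065-109709085, plus strand: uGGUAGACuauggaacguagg
miR-434-3p, chr12:109594565-109594586, plus strand: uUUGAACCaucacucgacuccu
miR-431-5p, chr12:109590459-109590479, plus strand: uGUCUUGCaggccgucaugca
miR-409-3p, chr12:109743204-109743225, plus strand: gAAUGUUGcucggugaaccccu
miR-292a-5p, chr7:3219200-3219221, plus strand: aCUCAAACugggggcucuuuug
miR-294-3p, chr7:3220691-3220712, plus strand: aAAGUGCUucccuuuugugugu
miR-302b-3p, chr3:127545275-127545297, plus strand: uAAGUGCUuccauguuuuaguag
miR-20a-5p, chr14:115044183-115044205, plus strand: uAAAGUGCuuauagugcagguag
miR-93-5p, chr5:138165574-138165596, minus strand: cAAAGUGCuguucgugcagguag
miR-92a-3p, chr14:115044476-115044496, plus strand: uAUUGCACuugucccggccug
miR-92b-3p, chr3:89227126-89227147, minus strand: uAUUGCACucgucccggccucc

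Each value below is a share of the mapping reads in a library, in percent, and replicates are given in the order 1 and 2. The E13.5 libraries held 12043363 and 19734948 reads and the SGET libraries 10209580 and 9526338, while the 8 libraries ran from 7447873 to 26552524. Where a library held no read of a feature, 3 reads were taken as the most that this count allows, which is 2.94e-05% and 3.15e-05% in the SGET libraries. Such floors and all intervals cover counting error only, because the random read ends were trimmed and PCR copies are counted. A feature is a miRNA gene or, where reads match several genes exactly, the set of those genes. Differences were tested with edgeR's quasi-likelihood test over all features and are called at a Benjamini-Hochberg adjusted p under 0.05. With 2 libraries against 2, an exact two-sided permutation test of a single value cannot give a p below 0.33.

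As a class, miRNA reads overlapped between SGET mPGCLCs and E13.5 mPGCs, while single miRNAs differed. Reads of 20 to 24 nt in miRNA transcripts were 14.6% and 21.3% at E13.5 and 16.01% and 24.8% in SGET mPGCLCs. The ratio of the means was 1.14 ± 0.460 (SD propagated from the SDs of the 2 groups, n = 2 each), and the groups overlapped (exact permutation test, p = 0.67). Of 571 miRNA features measured, 378 were tested, of which 10 were higher in SGET mPGCLCs (2.65%) and 15 were lower (3.97%). The higher count was 3 without E13.5 replicate 1 and 18 without E13.5 replicate 2. Fewer cells of a kind and less RNA per cell cannot be told apart in such bulk libraries. Among all tested features the SGET libraries lay wholly above the E13.5 libraries for 88 (23.3%) and wholly below for 87 (23.0%), and the median log2 fold change was -0.19. An unadjusted p under 0.05 was reached by 65 of them (17.2%), and DESeq2 called 26 higher (6.88%) and 51 lower of the 378. Counts within lists are read against these shares.

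**Figure D1:**
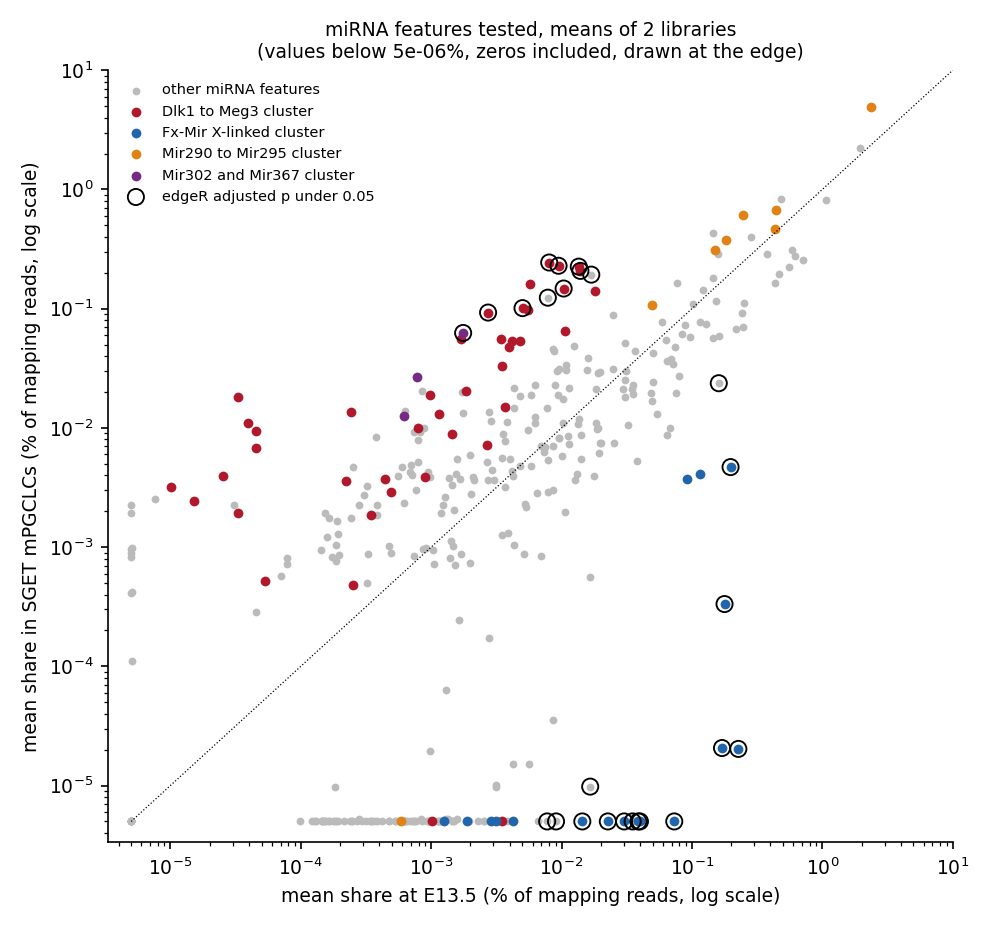
Mean share of each tested miRNA feature at E13.5 (x axis) and in SGET mPGCLCs (y axis), both in % of mapping reads on log scales, each mean over 2 libraries, with 4 clusters in colour and features past the edgeR threshold circled. The Fx-Mir cluster lies at the lower right or on the bottom edge, the Dlk1 to Meg3 cluster above the dotted line of equality except for a few features at low shares, and the Mir290 to Mir295 cluster near the line at the top.

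The Fx-Mir cluster, at chrX:66776757-68010179, held more of the lower miRNAs than any other list examined. Its summed share was 0.942% and 1.48% at E13.5, and 0.00574% and 0.0201% in SGET mPGCLCs, a mean of 1.21% ± 0.383 against 0.0129% ± 0.0101 (SD, n = 2 each). The E13.5 mean was 94.0-fold higher. At E12.5 the sum was 0.137% and 0.268%, which also lay above both SGET libraries. Of 22 annotated genes, reads formed 19 features and 17 were tested. Of these, 10 were lower (3.97% of all features), none was higher and 7 were not called. An unadjusted p under 0.05 was reached by 13 of the 17 (17.2% of all features), and DESeq2 called all 17 lower (51 of all 378 features) and none higher. In 16 of these 17 the SGET libraries lay below the E13.5 libraries (23.0% of all features). No read in either SGET library was found for 11 of the 19 features, against 225 of all 571 features measured.

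Mir871 was the clearest of them. It held 26579 and 46104 reads at E13.5, or 0.221% and 0.234%, and 2 reads in each SGET library, or 1.96e-05% and 2.10e-05%. The pooled share was 11285-fold lower in SGET mPGCLCs (exact 95% counting interval 4407 to 41419), with a log2 fold change of -13.39 ± 1.02 (SE) and an adjusted p of 5.8e-07 (edgeR). At E12.5 the share was 0.0247% and 0.0416%, so both in vivo stages held Mir871 well above the SGET libraries. Mir465c-1/Mir465c-2, a pair of gene copies that share their reads, had 16026 and 40901 reads at E13.5 against 1 and 3 in SGET mPGCLCs. Its pooled share was 8839-fold lower (counting interval 3452 to 32441, adjusted p = 4.9e-06, edgeR). The near-identical Mir465 copies cannot be told apart by these reads.

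Mir743b had 4977 and 20745 reads at E13.5 and none in either SGET library. Taken against the floor, it was at least 2406-fold lower (edgeR adjusted p = 0.000129). Mir878 had 3425 and 9694 reads against none and was at least 1274-fold lower (edgeR adjusted p = 0.000165). SGET mPGCLCs thus held neither at this depth. Mir881 had 2747 and 11262 reads against 1 and none (edgeR adjusted p = 0.000387). Mir465, Mir883a and Mir471 had between 859 and 8669 reads in each E13.5 library and none in the SGET libraries, which made them at least 993-fold, 744-fold and 474-fold lower.

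Mir470 was the called member with the most reads in SGET mPGCLCs, 512 and 416. Its share was 0.147% and 0.249% at E13.5 and 0.00501% and 0.00437% in SGET mPGCLCs. The groups did not overlap, and the share was 42.2-fold lower with a log2 fold change of -5.40 ± 0.81 (SE, edgeR adjusted p = 0.000434). Reads that all the Mir465, Mir465b and Mir465c copies share were 0.120% and 0.235% at E13.5 and 0.000666% and 0 in SGET mPGCLCs (edgeR adjusted p = 0.00433). Other members were uneven between the SGET replicates. Mir741 was 0.0954% and 0.133% at E13.5 and 9.79e-06% and 0.00817% in SGET mPGCLCs, and was not called (edgeR adjusted p = 0.121). Mir743 was 0.0789% and 0.106% at E13.5 and 0 and 0.00747% in SGET mPGCLCs, and was not called (edgeR adjusted p = 0.183). For both, nearly all SGET reads came from replicate 2. When only the SGET and E13.5 libraries were fitted, Mir465, Mir883a, Mir471 and the reads shared by the Mir465 copies lost their calls (edgeR adjusted p = 0.0513, 0.0506, 0.107 and 0.199).

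Outside the X chromosome, 5 features were lower in SGET mPGCLCs. Mir202, at chr7:139957689-139957760 and known for its expression in the gonad, had 3280 and 8483 reads at E13.5 and none in either SGET library. It was at least 1153-fold lower (edgeR adjusted p = 0.000165), and at E12.5 it stood at 0.0149% and 0.0174%. Mir29a, of a family that targets transcripts of de novo DNA methyltransferases, had 2715 and 2100 reads at E13.5 against 2 and none. The pooled share was 1495-fold lower (counting interval 414 to 12350, edgeR adjusted p = 0.00687), and the call was lost when only these 2 groups were fitted (edgeR adjusted p = 0.107). Mir19a had 730 and 2385 reads against none (at least 298-fold lower, edgeR adjusted p = 0.0259), and Mir760 had 728 and 1870 against none (at least 255-fold lower, edgeR adjusted p = 0.0333). Both of these lay below the share set for naming miRNAs and are given because they complete the 15.

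Mir20a, of the Mir17hg cluster that is known to drive proliferation, was the lower feature with the highest share in SGET mPGCLCs. Its share was 0.141% and 0.181% at E13.5 and 0.0158% and 0.0316% in SGET mPGCLCs. Both SGET libraries lay below both E13.5 libraries, and the share was 6.78-fold lower with a log2 fold change of -2.76 ± 0.71 (SE, edgeR adjusted p = 0.0259). The call did not hold without E13.5 replicate 1, E13.5 replicate 2 or SGET replicate 1 (edgeR adjusted p = 0.0602, 0.103 and 0.225), nor in the fit of these 2 groups alone (0.0974).

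**Figure D2:**
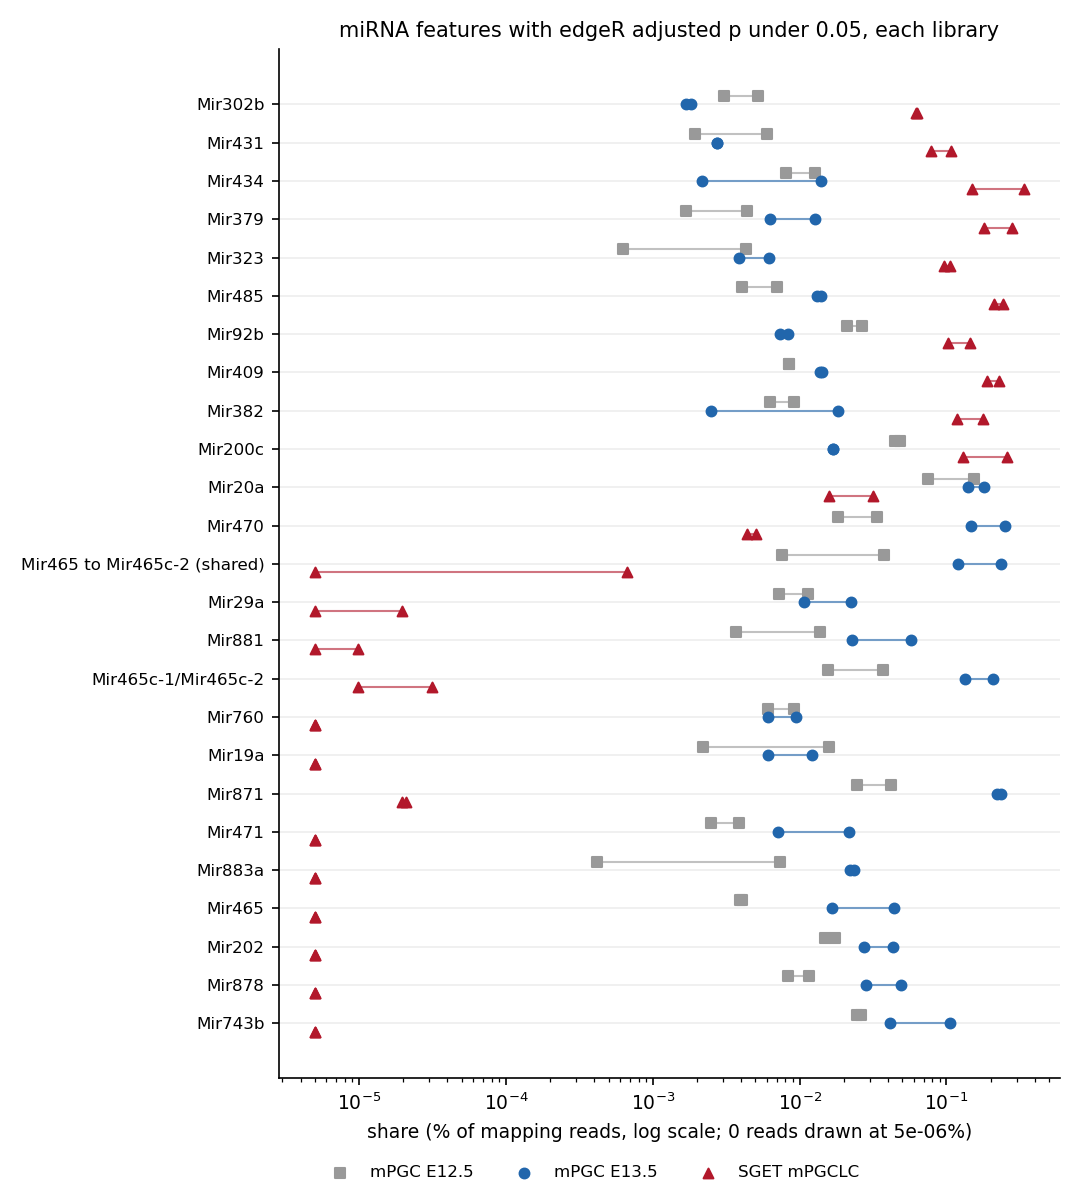
Share of each called miRNA feature in each library (x axis, % of mapping reads, log scale, 0 reads drawn at the left edge) for E12.5, E13.5 and SGET libraries, with a line joining the 2 replicates of a group. The 10 features at the top are higher in both SGET libraries and the 15 below them lower, 8 of these with no read in either SGET library.

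The Dlk1 to Meg3 list, whose genes span chr12:108836973-110278129, held more of the higher miRNAs than any other list examined. Its summed share was 0.107% and 0.183% at E13.5 and 1.73% and 2.68% in SGET mPGCLCs, a mean of 0.145% ± 0.0542 against 2.20% ± 0.671 (SD, n = 2 each). The SGET mean was 15.2-fold higher. At E12.5 the sum was 0.0731% and 0.131%, so the in vivo stages overlapped each other and stood below both SGET libraries. Reads formed 52 features and 42 were tested, of which 7 were higher (2.65% of all features), none was lower and 35 were not called. An unadjusted p under 0.05 was reached by 18 of the 42 (17.2% of all features), and DESeq2 called 19 higher (6.88% of all features) and 1 lower. In 36 of these 42 the SGET libraries lay above the E13.5 libraries (23.3% of all features) and in 2 below (23.0%). The median log2 fold change was 3.86. Mir1247, at the end of the list's span and on the minus strand, was below. It had 316 and 858 reads at E13.5 and none in SGET mPGCLCs.

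Mir379, which opens the distal run of miRNAs in the cluster, was 0.00632% and 0.0127% at E13.5 and 0.180% and 0.278% in SGET mPGCLCs. Without any overlap, the SGET mean was 24.2-fold higher with a log2 fold change of 4.59 ± 0.83 (SE, edgeR adjusted p = 0.00281). Mir485 was 0.0140% and 0.0131% at E13.5 and 0.209% and 0.241% in SGET mPGCLCs, a log2 fold change of 4.05 ± 0.74 (SE, edgeR adjusted p = 0.00281). Its replicates lay close together in both groups. Mir431, which with Mir434 is processed from the antisense transcript of Rtl1, was 0.00274% and 0.00273% at E13.5 and 0.0780% and 0.108% in SGET mPGCLCs (log2 fold change 5.09 ± 1.06 (SE), edgeR adjusted p = 0.00687). Mir434 was 0.00218% and 0.0139% at E13.5 and 0.149% and 0.339% in SGET mPGCLCs (log2 fold change 4.92 ± 1.09 (SE), edgeR adjusted p = 0.00848). For Mir434 both groups spread widely, yet the lowest SGET library stood above the highest E13.5 library.

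Mir409, Mir323 and Mir382 were the other higher members, 14.9-fold, 20.1-fold and 14.2-fold above E13.5 (edgeR adjusted p = 0.00383, 0.0333 and 0.0259). Their E13.5 shares ran from 0.00249% to 0.0183% and their SGET shares from 0.0968% to 0.227%, without overlap. Several of these calls, though not their directions, depended on the libraries fitted. Without E13.5 replicate 1, Mir431, Mir409, Mir323 and Mir382 were not called (edgeR adjusted p = 0.0587, 0.0549, 0.141 and 0.230), with log2 fold changes of 5.09, 3.87, 4.03 and 3.01. Mir323 was also lost without SGET replicate 1 (edgeR adjusted p = 0.0708), and Mir382 without SGET replicate 2 (0.0627). In the fit of these 2 groups alone Mir434 and Mir382 were not called (edgeR adjusted p = 0.144 and 0.207). Mir379 and Mir485 were called under every alternative tried.

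Other members stood apart between the groups without passing the test. Mir541 was 8.30e-06% and 0.0115% at E13.5 and 0.111% and 0.211% in SGET mPGCLCs (edgeR adjusted p = 0.129). Mir370 was 1.66e-05% and 0.00340% at E13.5 and 0.0513% and 0.0608% in SGET mPGCLCs (edgeR adjusted p = 0.165). Mir127, known for its part in placental development through Rtl1, was 0.00545% and 0.0158% at E13.5 and 0.0432% and 0.0868% in SGET mPGCLCs (edgeR adjusted p = 0.207). In each of these the 2 SGET libraries stood above both E13.5 libraries.

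The Mir302 and Mir367 cluster, at chr3:127545228-127545807 and known for the epiblast and primed pluripotency, was low at E13.5. Its summed share was 0.00272% and 0.00365% there and 0.00716% and 0.0109% at E12.5. In SGET mPGCLCs it reached 0.0901% and 0.122%. The SGET libraries stood apart from both stages, with a mean 33.2-fold above E13.5. Mir302b had 220 and 334 reads at E13.5 and 6342 and 6001 in SGET mPGCLCs, or 0.00183% and 0.00169% against 0.0621% and 0.0630%. The log2 fold change was 5.15 ± 1.12 (SE, edgeR adjusted p = 0.00800), and it was not called without E13.5 replicate 1, E13.5 replicate 2 or SGET replicate 1 (edgeR adjusted p = 0.113, 0.0790 and 0.0566). Mir302d was 0.000739% and 0.000821% at E13.5 and 0.0162% and 0.0375% in SGET mPGCLCs, and was not called (edgeR adjusted p = 0.0914). In all 5 measured features the SGET libraries lay above the E13.5 libraries, against 96 of all 571 features measured. Of the 3 tested, 1 was higher (2.65% of all features) and 2 were not called. An unadjusted p under 0.05 was reached by 2 of the 3 (17.2% of all features), and DESeq2 called all 3 higher (6.88% of all features).

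The Mir290 to Mir295 cluster, at chr7:3218626-3220841 and known for the early embryo, naive mESCs and germ cells, was the most abundant cluster in both groups. Its summed share was 3.17% and 4.53% at E13.5, 3.89% and 6.10% at E12.5, whereas SGET mPGCLCs held 5.77% and 9.11%. The SGET libraries lay above the E13.5 libraries, with a ratio of means of 1.93, but the lower SGET library fell within the E12.5 range. None of its 8 features was called by edgeR or DESeq2, and 2 reached an unadjusted p under 0.05 (17.2% of all features). In 6 of the 8 the SGET libraries lay above those of E13.5 (23.3% of all features). Mir292, the most abundant miRNA in both groups, was 2.03% and 2.67% at E13.5 and 3.70% and 6.12% in SGET mPGCLCs (log2 fold change 1.06 ± 0.44 (SE), edgeR adjusted p = 0.207). Mir294 was 0.213% and 0.282% at E13.5 and 0.467% and 0.744% in SGET mPGCLCs (edgeR adjusted p = 0.233). Mir290a overlapped, with 0.288% and 0.573% at E13.5 and 0.287% and 0.649% in SGET mPGCLCs.

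The seeds printed above show how these clusters overlap in sequence. Mir302b shares the seed AAGUGCU with Mir294 and Mir295 of the Mir290 to Mir295 cluster. Reads with this seed summed to 0.336% and 0.465% at E13.5 and 0.703% and 1.18% in SGET mPGCLCs. Mir302b, although 35.6-fold higher, made up a small part of it. The seed AAAGUGC of Mir93, Mir20a, Mir17 and Mir106b, which is the same string moved by 1 base, went the other way, with 0.749% and 1.12% at E13.5 and 0.182% and 0.525% in SGET mPGCLCs. Neither seed overlapped between the groups. The seed CUCAAAC of Mir292 and Mir290a was 1.98% and 2.76% at E13.5 and 3.39% and 5.45% in SGET mPGCLCs. These sums were picked with the values in view and carry no test. Over the 60 most abundant seeds, which covered 87.0% of SGET and 89.3% of E13.5 miRNA reads, SGET mPGCLCs lay above in 22, below in 24 and overlapped in 14.

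A pair of miRNAs outside these clusters was also higher. Mir92b, at chr3:89227116-89227198, shares the seed AUUGCAC with Mir92-1, Mir92-2 and Mir25. It was 0.00738% and 0.00832% at E13.5, 0.0211% and 0.0266% at E12.5, whereas SGET mPGCLCs held 0.103% and 0.145%. The groups did not overlap, and the log2 fold change was 3.98 ± 0.84 (SE, edgeR adjusted p = 0.00687, or 0.0874 without E13.5 replicate 1). Mir200c, at chr6:124718322-124718390 and known for the epithelial state, was 0.0170% and 0.0168% at E13.5, 0.0446% and 0.0484% at E12.5, whereas SGET mPGCLCs held 0.130% and 0.256%. Its log2 fold change was 3.51 ± 0.77 (SE, edgeR adjusted p = 0.00800), and the call was lost without E13.5 replicate 1, without SGET replicate 2 and in the fit of these 2 groups alone (edgeR adjusted p = 0.0807, 0.0674 and 0.0506). For both, E12.5 lay between E13.5 and the SGET libraries. Of the 5 features of the Mir200 and Mir141 family, 1 was higher (2.65% of all features) and 4 were not called.

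SGET mPGCLCs shared part of the most abundant miRNA set with E13.5 mPGCs. Of the 10 most abundant features of each group, 5 were shared. The 10 of SGET mPGCLCs held 59.1% and 56.4% of the miRNA reads of the SGET libraries and 45.3% and 40.1% of those at E13.5. This list was drawn from the SGET libraries themselves, and the 10 of E13.5 were not summed in SGET mPGCLCs. Mir92-1, of the Mir17hg cluster, was 1.70% and 2.17% at E13.5 and 1.95% and 2.51% in SGET mPGCLCs (edgeR adjusted p = 0.795). Mir183 was 1.06% and 1.08% at E13.5 and 0.822% and 0.811% in SGET mPGCLCs (edgeR adjusted p = 0.720). The groups overlapped for Mir92-1 and stood apart by little for Mir183. The 17 features of the Mir17hg, Mir106a to Mir363 and Mir106b to Mir25 clusters summed to 3.32% and 4.20% at E13.5 and 3.01% and 4.71% in SGET mPGCLCs. Of 16 tested, 2 were lower (3.97% of all features), none was higher and 14 were not called. The lower ones were Mir20a and Mir19a. In 7 of the 16 the SGET libraries lay below those of E13.5 (23.0% of all features) and in 2 above (23.3%). The median log2 fold change of the 16 was -0.77. An unadjusted p under 0.05 was reached by 3 of the 16 (17.2% of all features). DESeq2 called 4 lower (51 of all 378 features) and none higher. Mir92-1 was the largest part of the sum.

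The let-7 family, the Mir10, Mir99, Mir100 and Mir125 families and the Mir29 and Mir148 families had lower summed shares in SGET mPGCLCs, but only 1 of their tested features was called lower (3.97% of all features). The let-7 family, which represses Lin28a, summed to 0.516% and 0.687% at E13.5 and 0.186% and 0.403% in SGET mPGCLCs, and none of its 12 tested features was called (2 at an unadjusted p under 0.05, against 17.2% of all features, and 2 lower by DESeq2, against 51 of 378). In 6 of the 12 the SGET libraries lay below those of E13.5 (23.0% of all features) and in none above, with a median log2 fold change of -1.21. Mirlet7e was 0.232% and 0.249% at E13.5 and 0.0547% and 0.131% in SGET mPGCLCs (edgeR adjusted p = 0.255). The Mir10, Mir99, Mir100 and Mir125 families summed to 0.665% and 1.35% at E13.5 and 0.304% and 0.470% in SGET mPGCLCs, with none of 8 tested features called (2 at an unadjusted p under 0.05, and 1 lower by DESeq2, against the same shares). In both sums the groups did not overlap. In 3 of the 8 the SGET libraries lay below those of E13.5 (23.0% of all features) and in none above, with a median log2 fold change of -1.40. Mir125a was 0.535% and 0.898% at E13.5 and 0.202% and 0.307% in SGET mPGCLCs (edgeR adjusted p = 0.145). Other members had a higher mean in SGET mPGCLCs with overlapping libraries, as Mir125b-1/Mir125b-2, at 9.13e-05% and 0.0215% against 0.0121% and 0.0488% (edgeR adjusted p = 0.582), and Mir10a, at 0.00340% and 0.00913% against 0.00197% and 0.0227% (edgeR adjusted p = 0.765). The Mir29 and Mir148 families summed to 0.0900% and 0.130% at E13.5 and 0.0210% and 0.0494% in SGET mPGCLCs, with Mir29a lower and 4 of 5 tested features not called. In 3 of the 5 the SGET libraries lay below (23.0% of all features) and in none above. Mir148a was 0.0485% and 0.102% at E13.5 and 0.0131% and 0.0261% in SGET mPGCLCs (edgeR adjusted p = 0.207), while Mir148b overlapped, at 0.00575% and 0.00805% against 0.00444% and 0.00955%.

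The Sfmbt2 intronic cluster, a rodent miRNA cluster of many copies that share reads, summed to 0.224% and 0.266% at E13.5 and 0.666% and 0.972% in SGET mPGCLCs. Both SGET libraries lay above, and none of its 30 tested features was called (2 at an unadjusted p under 0.05, against 17.2% of all features, and 1 higher by DESeq2, against 6.88%). In 17 of the 30 the SGET libraries lay above those of E13.5 (23.3% of all features) and in 1 below (23.0%). The median log2 fold change of the 30 was 1.77. Mir669c was 0.133% and 0.155% at E13.5 and 0.329% and 0.531% in SGET mPGCLCs (edgeR adjusted p = 0.142). The Mir182, Mir183 and Mir96 cluster summed to 1.39% and 1.54% at E13.5 and 1.11% and 1.12% in SGET mPGCLCs. None of 3 was called, though in all 3 the SGET libraries lay below (23.0% of all features). None of the 3, 9 and 4 tested features of the Mir34 and Mir449, Mir15 and Mir16, and Mir130 and Mir301 families was called either. Of these 4 lists, none reached an unadjusted p under 0.05 or a DESeq2 call.

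**Figure D3:**
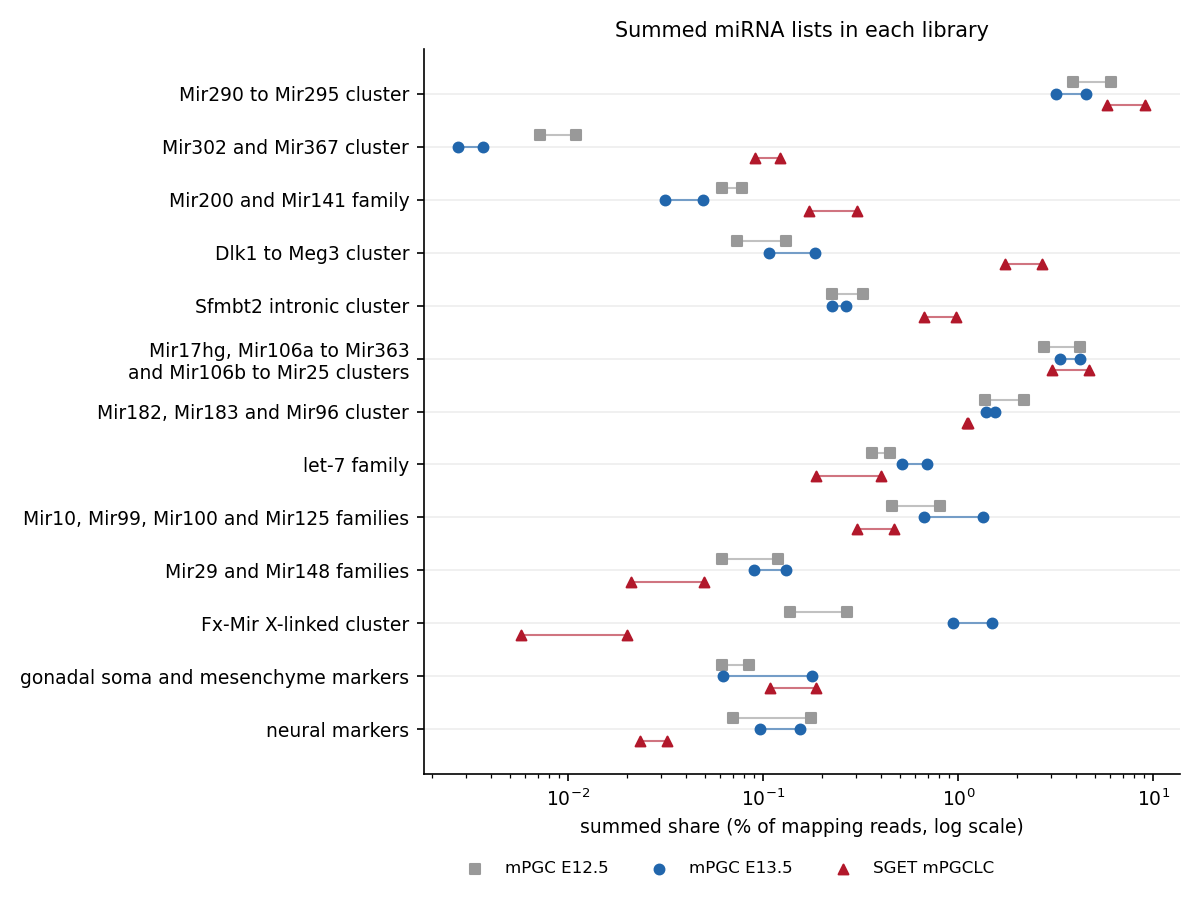
Summed share of 13 lists of miRNAs in each library (x axis, % of mapping reads, log scale) for E12.5, E13.5 and SGET libraries, with a line joining the 2 replicates of a group. The Fx-Mir cluster lies below both in vivo stages, at 0.00574% and 0.0201% in SGET mPGCLCs, and the Dlk1 to Meg3 cluster lies above both in vivo stages, at 1.73% and 2.68%.

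Erythroid, leukocyte, endothelial and muscle markers were low in both groups. Gonadal soma and mesenchyme, neural, and endoderm and liver markers held larger shares. The 4 erythroid features summed to 0 and 0.00191% at E13.5 and to 9.79e-06% and 0 in SGET mPGCLCs. In both SGET libraries 3 of the 4 had no read, as did 225 of all 571 features measured. The 3 leukocyte features summed to at most 0.00237% in any of the 4 libraries, and the 3 muscle features to at most 0.00209%. The endothelial feature reached at most 0.00694%. None of these was called by edgeR or DESeq2, or reached an unadjusted p under 0.05. The 9 gonadal soma and mesenchyme features summed to 0.0618% and 0.177% at E13.5 and to 0.109% and 0.186% in SGET mPGCLCs. Mir202 was the only one of 7 tested that was called. The median log2 fold change of these 7 was 1.78, and Mir143 lay wholly above, at 0.00351% and 0.0213% against 0.0315% and 0.0653% (edgeR adjusted p = 0.350). The 9 neural features summed to 0.0959% and 0.155% at E13.5 and to 0.0232% and 0.0322% in SGET mPGCLCs. None of 7 was called (3 at an unadjusted p under 0.05, against 17.2% of all features, and 4 lower by DESeq2, against 51 of 378). In 4 of the 7 the SGET libraries lay below those of E13.5 and in 1 above. The most abundant of these, Mir9-1/Mir9-2/Mir9-3, was 0.0572% and 0.0720% at E13.5 and 0.00348% and 0.0141% in SGET mPGCLCs (edgeR adjusted p = 0.104). The 5 endoderm and liver features summed to 0.0181% and 0.0175% at E13.5 and to 0.0265% and 0.05001% in SGET mPGCLCs. None was called by either tool or reached an unadjusted p under 0.05. The part that other cells had in the miRNA differences was not tested.

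Few other annotated small RNAs passed the test. Reads in snoRNAs, which guide rRNA modification, were 1.47% and 4.41% at E13.5 and 2.74% and 2.82% in SGET mPGCLCs. Both SGET libraries lay within the E13.5 range. Reads in snRNAs of the spliceosome were 0.169% and 0.338% at E13.5 and 0.216% and 0.212% in SGET mPGCLCs, also within that range. Mitochondrial rRNA reads were 0.0942% and 0.126% at E13.5 and 0.199% and 0.193% in SGET mPGCLCs. Mitochondrial tRNA reads were 0.00692% and 0.0393% at E13.5 and 0.0657% and 0.0454% in SGET mPGCLCs. The SGET libraries lay above the E13.5 libraries for both mitochondrial classes. The ratios were 1.78 ± 0.367 and 2.41 ± 2.46 (SD propagated from the SDs of the 2 groups, n = 2 each). For both, the exact permutation test gave its smallest p of 0.33. At E12.5, mitochondrial rRNA reads were 0.0817% and 0.1994% and mitochondrial tRNA reads 0.0206% and 0.0672%. Both SGET libraries thus lay within the E12.5 range for both classes. Without E13.5 replicate 2 the ratio for mitochondrial tRNA was 8.02. Reads of the class misc_RNA, which holds the Y RNAs, were 0.135% and 0.226% at E13.5 and 0.319% and 0.276% in SGET mPGCLCs. The ratio of the means was 1.65 (exact permutation test, p = 0.33), and at E12.5 this class stood at 0.214% and 0.199%, below both SGET libraries. Over all these other small RNAs 516 features were tested, of which 2 were higher (0.388%) and 1 was lower (0.194%). The SGET libraries lay wholly above for 56 (10.9%) and wholly below for 73 (14.1%).

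The mitochondrial tRNA for proline, mt-Tp, was the clearest difference. It had 0 and 2 reads at E13.5 and 2981 and 1753 in SGET mPGCLCs, or 0.0292% and 0.0184% there. The pooled share was 3811-fold higher (exact 95% counting interval 1054 to 31480, edgeR adjusted p = 0.000207). At E12.5 it stood at 0.00171% and 2.94e-05%, so the E12.5 replicates spread widely below the SGET libraries. It was not called without SGET replicate 1 or after TMM normalization (edgeR adjusted p = 0.109 and 0.114). Snord93, a C/D box snoRNA, had 1 and 5 reads at E13.5 and 934 and 1778 in SGET mPGCLCs, a pooled share 728-fold higher (counting interval 334 to 1985, edgeR adjusted p = 0.0282). It lost its call without any 1 of the 4 libraries (edgeR adjusted p from 0.0841 to 1.0). The lower feature, the rRNA gene CT010467.1, had 0 and 61 reads at E13.5 and none in SGET mPGCLCs, so the groups overlapped, and it is named here only because it completes the count.

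Abundant members of these classes were not called. The Y RNA Rny1 was 0.0575% and 0.134% at E13.5 and 0.257% and 0.160% in SGET mPGCLCs (edgeR adjusted p = 0.653). Rny3 was 0.0737% and 0.0815% at E13.5 and 0.0444% and 0.0856% in SGET mPGCLCs. The mitochondrial 12S rRNA mt-Rnr1 was 0.00409% and 0.00640% at E13.5 and 0.0424% and 0.0247% in SGET mPGCLCs (edgeR adjusted p = 0.510). Only Rny3 of these overlapped between the groups. The RNase MRP RNA, Rmrp, was 0.00465% and 0.00159% at E13.5 and 0.000264% and 7.35e-05% in SGET mPGCLCs (edgeR adjusted p = 0.553). The scaRNA Gm26083 had no read at E13.5 and 620 and 184 in SGET mPGCLCs (edgeR adjusted p = 0.387).

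By length and 5′ base, SGET mPGCLCs lacked most of the 5′-U reads that flank 27 nt at E13.5. Over 104 classes of 15 to 40 nt, none was higher (0.0%) and 5 were lower (4.81%), and 4 of these 5 lie outside 27 nt. At an unadjusted p under 0.05 there were 8 classes, of which 21-nt 5′-A was the only higher one outside 27 nt, and DESeq2 called none higher. The 4 were the 5′-U reads of 26, 28, 29 and 30 nt, which summed to 3.79% and 6.29% at E13.5, 1.11% and 1.5% at E12.5, whereas SGET mPGCLCs held 1.39% and 0.989%. The SGET libraries lay below E13.5 and overlapped E12.5. SGET libraries lay wholly above the E13.5 libraries in 17 classes (16.3%) and wholly below in 11 (10.6%).

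The 26-nt 5′-U class was 1.53% and 2.19% at E13.5 and 0.437% and 0.310% in SGET mPGCLCs, a log2 fold change of -2.32 ± 0.53 (SE, edgeR adjusted p = 0.000503). The 28-nt class was 1.18% and 2.01% at E13.5 and 0.420% and 0.281% in SGET mPGCLCs, a log2 fold change of -2.19 ± 0.51 (SE, edgeR adjusted p = 0.000503). Both groups stood apart in each. The 29-nt class was 0.690% and 1.32% against 0.263% and 0.233% (log2 fold change -2.02 ± 0.46 (SE), edgeR adjusted p = 0.000503). The 30-nt class was 0.390% and 0.764% against 0.269% and 0.164% (log2 fold change -1.42 ± 0.42 (SE), edgeR adjusted p = 0.0149). The shortfall was smaller at 30 nt, where the E13.5 libraries also held fewer reads. Without E13.5 replicate 2 none of the 4 was called (edgeR adjusted p from 0.162 to 0.741), nor without SGET replicate 2 (from 0.173 to 0.916), and the 30-nt class was also lost without SGET replicate 1 (edgeR adjusted p = 0.0740). The 29-nt and 30-nt classes were not called after TMM normalization (edgeR adjusted p = 0.167 and 0.803) or with DESeq2 (adjusted p = 0.132 and 0.887).

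**Figure D4:**
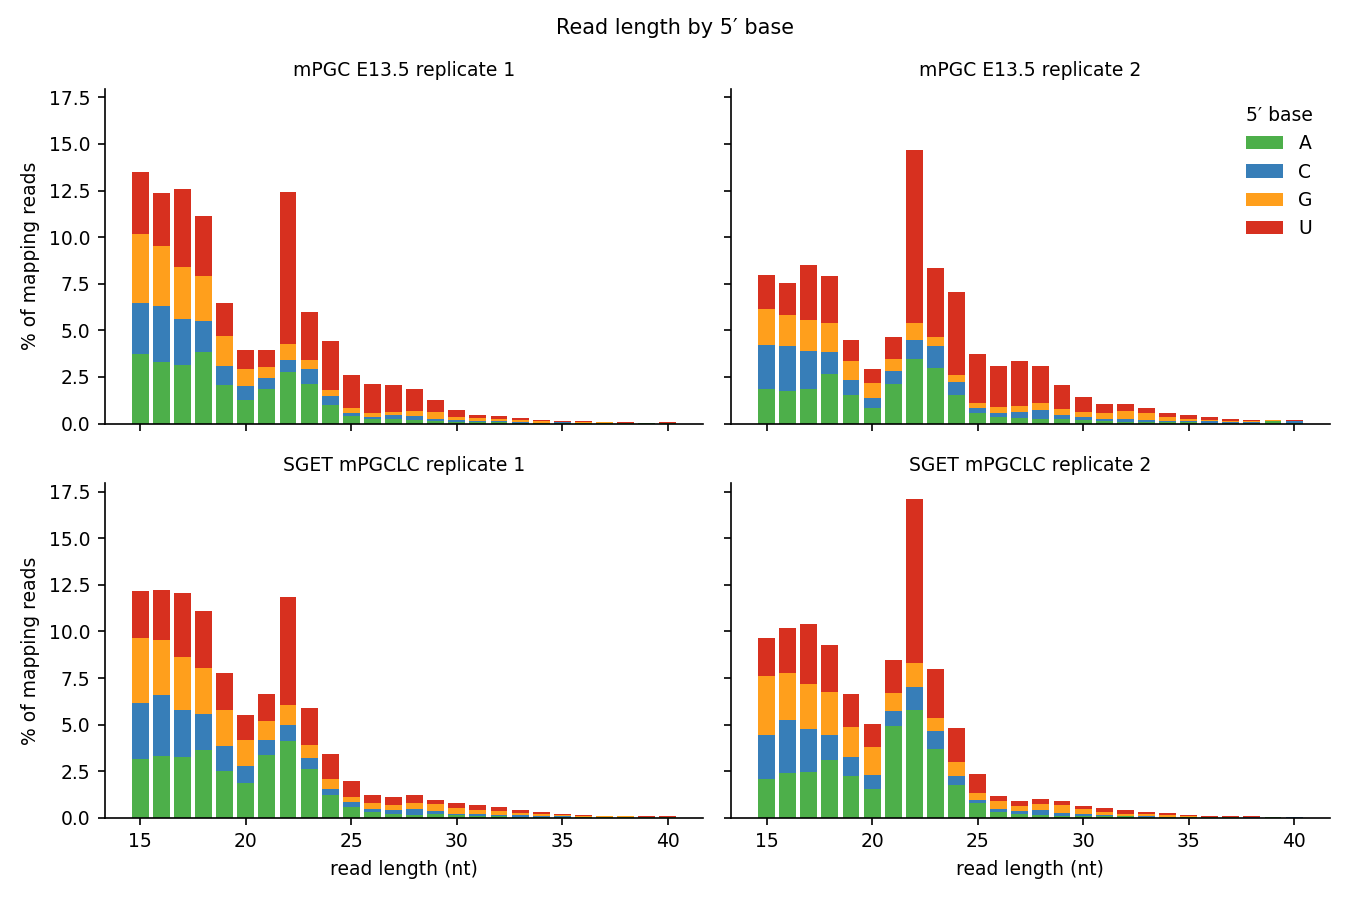
Share of reads of each length (x axis, nt) split by 5′ base (stacked bars, % of mapping reads) in the 2 E13.5 and the 2 SGET libraries. All 4 libraries peak at 22 nt beyond the shortest reads, and the 5′-U reads of 26 to 30 nt are larger in the E13.5 libraries, where 26-nt 5′-U reads were 1.53% and 2.19% against 0.437% and 0.310%.

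The make-up of these 5′-U reads differed from E13.5 and was near that of E12.5. The 10 most abundant sequences held 9.51% and 9.16% of the reads of the 4 classes at E13.5, 30.2% and 39.0% at E12.5, and SGET mPGCLCs had 35.2% and 27.7%. The 10 were taken in each library by itself, so they need not be the same sequences in any 2 libraries. As shares of mapping reads these sets overlapped, with 0.361% and 0.576% at E13.5 and 0.489% and 0.274% in SGET mPGCLCs. It was the reads outside each library's own 10 that had a smaller share. Whether given sequences were kept between the groups was not tested. The number of distinct sequences was 12676 and 29064 at E13.5 and 2816 and 2050 in SGET mPGCLCs. E12.5 libraries had 2376 and 4148. SGET mPGCLCs thus held fewer sequences, each at a larger part of the reads, and their number overlapped that of E12.5. Reads in annotated small RNAs other than miRNAs made up 1.62% and 2.77% of the 4 classes at E13.5, 9.17% and 11.4% at E12.5, and SGET mPGCLCs had 14.3% and 12.2%. As shares of mapping reads these were 0.0615% and 0.174% at E13.5 and 0.198% and 0.121% in SGET mPGCLCs, which overlap. These make-up values were computed with the class results known and carry no test, and numbers of distinct sequences depend on the depth of each library.

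None of the miRNA-length classes was called. The 22-nt 5′-U class, the most abundant of 20 nt and longer in both groups, was 8.14% and 9.29% at E13.5 and 5.78% and 8.76% in SGET mPGCLCs (edgeR adjusted p = 0.959). The groups overlapped. The 22-nt 5′-A class was 2.79% and 3.47% at E13.5 and 4.10% and 5.77% in SGET mPGCLCs (edgeR adjusted p = 0.940). The 21-nt 5′-A class was 1.84% and 2.15% at E13.5 and 3.36% and 4.91% in SGET mPGCLCs, and passed only before adjustment (edgeR, unadjusted p = 0.0182, edgeR adjusted p = 0.237). In the other direction, 24-nt 5′-U was 2.65% and 4.43% at E13.5 and 1.35% and 1.83% in SGET mPGCLCs (edgeR, unadjusted p = 0.0128, edgeR adjusted p = 0.190). Likewise 25-nt 5′-U was 1.76% and 2.61% against 0.856% and 1.03% (edgeR, unadjusted p = 0.0124, edgeR adjusted p = 0.190). Neither overlapped between the groups. Reads of the Mir290 to Mir295 cluster were 50.7% and 58.6% of the 21-nt 5′-A class at E13.5 and 60.9% and 68.0% in SGET mPGCLCs. Among longer reads, the 5′-G reads of 31 to 35 nt summed to 0.488% and 1.5% at E13.5 and 0.727% and 0.458% in SGET mPGCLCs, and the groups overlapped.

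The 22-nt 5′-U class held reads that end in CCA, the bases that a dedicated enzyme adds to the 3′ end of every mature tRNA. Nuclear tRNAs are not in the annotation used, so these reads count among the unmatched ones. At 22 nt, unmatched reads ending in CCA were 3.42% and 3.28% of mapping reads at E13.5, and 1.23% and 1.85% in SGET mPGCLCs. They were 63.0% and 61.5% of all unmatched 22-nt reads at E13.5 and 31.4% and 36.4% in SGET mPGCLCs. At 23 nt the same ending made up no more than 3.02% of unmatched reads in any of the 4 libraries. CCA reads also peaked at 17 and 18 nt, and over 17, 18 and 22 nt they summed to 8.44% and 8.27% at E13.5 and 4.33% and 5.45% in SGET mPGCLCs. Both SGET libraries lay below, and the E13.5 mean was 1.71-fold higher. This did not hold at all lengths. For CCA reads of 15, 16, 19, 20 and 21 nt the ratio of SGET to E13.5 means was 1.08, 1.22, 1.02, 1.51 and 0.991. The reads without this ending in the 22-nt 5′-U class overlapped, with 4.75% and 6.02% at E13.5 and 4.57% and 6.97% in SGET mPGCLCs.

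The most abundant 22-nt reads of this kind are printed as the files give them, with the CCA in capitals, to show that members differed. The reads were not matched to tRNA genes, and how many places each has in the genome was not analysed here.
CCA read 1: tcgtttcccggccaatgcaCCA
CCA read 2: tcgatccccggcatctccaCCA
CCA read 3: tcgatccccggcacctccaCCA
CCA read 4: tcgatccccagcacctccaCCA
The first was 0.634% and 0.388% at E13.5 and 0.336% and 0.532% in SGET mPGCLCs, which overlap. The second was 0.550% and 0.610% at E13.5 and 0.229% and 0.329% in SGET mPGCLCs, a mean 2.08-fold higher at E13.5. The third and the fourth, which resemble the second, were 3.49-fold and 5.50-fold higher at E13.5. For these the SGET libraries lay below. The search for CCA was made with the values in view and carries no test. Reads with more than 2 mismatches were left out upstream, which can remove reads whose added bases differ from the genome.

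**Figure D5:**
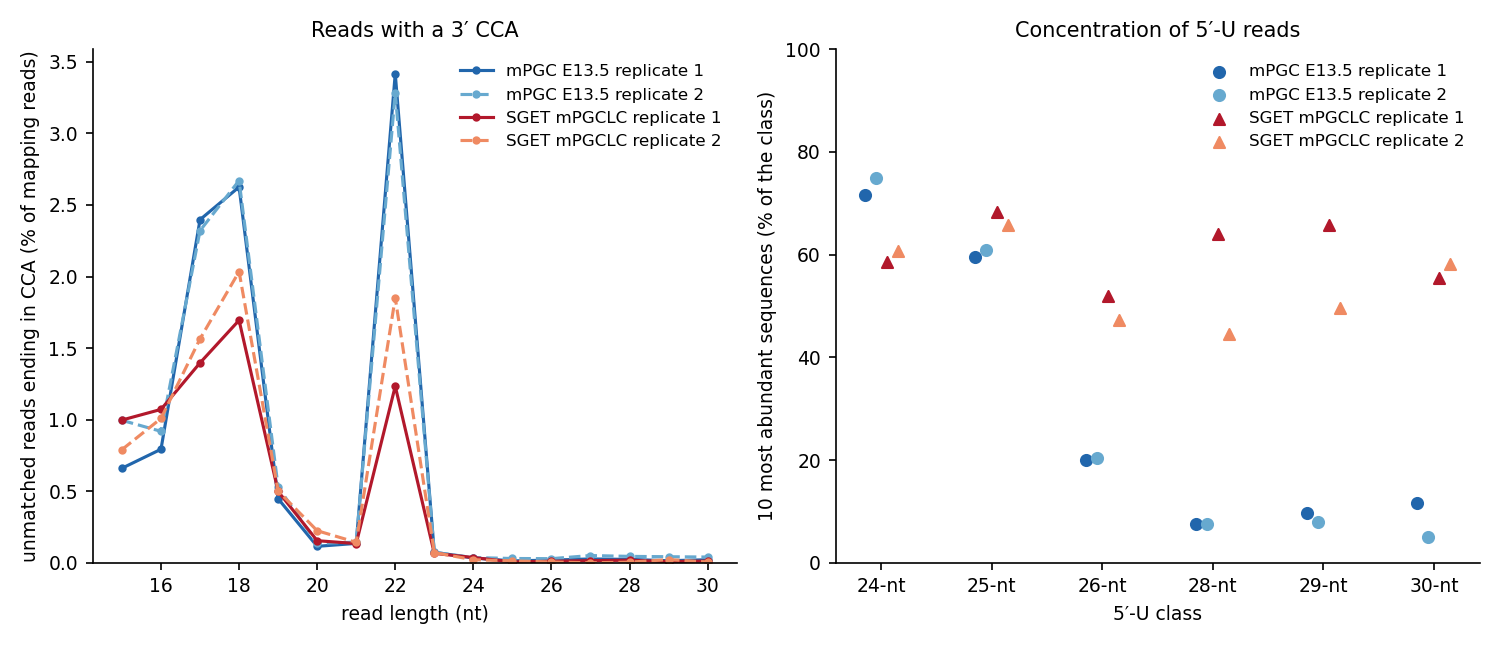
Left, unmatched reads that end in CCA (y axis, % of mapping reads) by read length (x axis, nt) in the 4 libraries. Right, the part of each 5′-U class held by its 10 most abundant sequences, taken in each library by itself (y axis, % of the class), by length. The E13.5 libraries reach 3.42% and 3.28% at 22 nt against 1.23% and 1.85% in SGET mPGCLCs, and in the 28-nt class the 10 sequences held 7.51% and 7.60% at E13.5 against 64.0% and 44.6%.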

How the data were processed

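Small RNA was sequenced from 2 libraries in each of 4 groups. After trimming of adapters and random ends (cutadapt 3.2), the authors aligned reads of at least 15 nt end to end to GRCm38 with STAR 2.5.3a, gave each multimapping read 1 random place and deposited raw read counts of each distinct sequence without normalization. HiSeq and NovaSeq instruments were used but are not assigned to libraries. Reads were matched exactly and in sense to GENCODE M21 transcripts, with 20 to 24 nt for miRNAs, at least 18 nt for other small RNAs, and classes of 15 to 40 nt by 5′ base. Counts were tested with edgeR 4.0.16 in R 4.3.3 (quasi-likelihood, all 4 groups in 1 fit, total reads as library size, filterByExpr, Benjamini-Hochberg adjustment). The standard error is the one that the F statistic implies. DESeq2 1.42.0 was an alternative. Tables were made in Python 3.11.15 (pandas 2.3.3, numpy 2.4.6, scipy 1.17.1).

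For a test on simulated data, counts were drawn with the dispersion estimated for each miRNA feature, whose common value was 2.10. There, edgeR recovered 15.9% of 16-fold changes among 347 features and 0% of 4-fold changes. DESeq2 recovered 45.5% of 16-fold changes while calling 5.94% of unchanged features. Named miRNAs were the 10 largest called changes in each direction with non-overlapping groups and a mean share of at least 0.01% in the higher group, the 5 most abundant per group, and list members of at least 0.01%. Other RNAs needed 0.001%, with 5 per direction and the 2 most abundant of each type. Named classes were the largest called changes and the miRNA-length and piRNA-length classes. Members and lists were chosen with earlier results of these data known. Replicates of 1 group differed far beyond counting noise, with a chi-square per degree of freedom of 472 in SGET mPGCLCs and 352 at E13.5. The mPGC replicates were separate litters, whereas nothing says that the SGET replicates were separate cultures, so p-values may measure technical spread there.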

Additional observations from a re-analysis of the deposited data

How the results depend on the processing

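No called feature named by the rule changed direction under the alternatives tried. Mir19a, Mir760 and CT010467.1, named outside it, were not followed across them. Over all pairs of a named feature and an alternative, 45 lost a call and 103 gained one. The count of higher miRNA features, 10, was 26 with DESeq2, 19 with the replicate block, 17 with the crossed block (chosen after seeing the data), 16 with the sum of miRNA reads as library size, and 3 to 18 without 1 library, the 3 being without E13.5 replicate 1 and the 18 without E13.5 replicate 2. The count of lower miRNA features, 15, was 28 after TMM, 51 with DESeq2, 7 with only these 2 groups fitted, 32 with the sum of miRNA reads, and 14 to 21 without 1 library. For other small RNAs, 2 higher features became 0 after TMM, 1 without the filter on low counts, 24 with DESeq2 and 0 to 2 without 1 library. The 1 lower feature became 0 after TMM, in the fit of these 2 groups, with the replicate block and with reads of at least 20 nt, 2 with the crossed block and with a mean share of at least 0.001% (both chosen after seeing the data), 22 with DESeq2, and 0 to 1 without 1 library. TMM moved the median log2 fold change of these RNAs from -0.60 to -0.43. For classes outside 27 nt, 4 lower became 2 after TMM and with DESeq2, 7 with each distinct sequence counted once, and 0 to 4 without 1 library, and 0 higher became 1 with the replicate block and with classes of 20 to 33 nt. Leaving out 1 library, the ratio of SGET to E13.5 ran from 0.631 to 1.89 for snoRNA, 0.632 to 1.26 for snRNA, 1.42 to 8.02 for mitochondrial tRNA, 0.327 to 1.56 for rRNA and 1.23 to 15.4 for scaRNA, each highest without E13.5 replicate 2. The cause of these changes was not tested. Replicate numbers are shared only as labels: same-numbered deviations correlated at 0.00844 for miRNAs, -0.0424 for other small RNAs and -0.342 for classes, so the paired fit is not read as a weaker or stronger effect. In data simulated with the dispersion estimated for each miRNA feature, edgeR recovered 0% of 4-fold changes with 2 libraries a group, so uncalled miRNAs may differ by that much.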
